A study of Mus musculus with 19 samples.

Results

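Saa3, Lbp, Hp, Orm1, C3, C4b, C1ra, C1s1 and Cfb, 9 genes of the complement system and the acute phase response, were followed in mouse tibialis anterior, a fast muscle of the lower leg, 12 hours after 50 eccentric contractions. They were taken as a named list, each read from the probe set that carries its symbol and no other, and where a gene had several such probe sets the one with the highest mean over the 19 arrays stood for it. A single-symbol probe set was found for 7 of the 9 genes, among 12393 genes named in this way. C3 had none in the annotation used here, and the 1 probe set of C4b carries a further symbol, so neither gene has a value. Orm1 lay below the filter on dim genes, which kept the upper 60% of genes by mean, so 6 genes were tested among 7436.

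The 4 groups were 4 aged desmin knockout muscles (KO_Aged, 12 to 14 months), 5 adult desmin knockout muscles (KO_Adult, 7 to 9 weeks), 5 aged wild-type muscles (WT_Aged, 12 to 14 months) and 5 adult wild-type muscles (WT_Adult, 7 to 9 weeks). Knockout mice carried Des(-/-) on the 129/SVE background, and wild-type mice were 129/SVE. Every group, WT included, had received the contractions, so no uncontracted muscle stands behind any value. Nothing in the labels states whether each array had a mouse of its own, and the p-values measure the spread between arrays, which may be technical.

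The acute phase response is the change in secreted proteins that follows tissue injury or infection. It is driven mainly by interleukin-6, interleukin-1 and related cytokines, and the liver makes most of the circulating protein, while Saa3 is a serum amyloid A made largely outside the liver, by macrophages, adipocytes and other stromal cells. Complement is a chain of plasma proteases that tags damaged cells and microbes: C1r and C1s are the paired proteases of the C1 complex that start the classical pathway by cutting C4 and C2, C3 is the central protein that both pathways cut, and factor B supplies the protease of the alternative pathway.

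Promoter sequence was at hand for 3 of the 7 measured genes, and it is shown because Saa3 differed most between groups and because C1ra and C1s1 moved together. The 250 bases before a RefSeq start are given in GRCm38.p6, 5′ to 3′ on the gene's own strand, at chr7:46715677-46715926 on the minus strand for Saa3, chr6:124512371-124512620 on the plus strand for C1ra and chr6:124542360-124542609 on the minus strand for the first of 2 starts of C1s1. The Saa3 start and the C1s1 start used here lie inside the annotated spans of their genes. Capitals mark matches to TTNNGNAA on either strand, a loose form of the site bound by C/EBP proteins, transcription factors of the acute phase response.
Saa3: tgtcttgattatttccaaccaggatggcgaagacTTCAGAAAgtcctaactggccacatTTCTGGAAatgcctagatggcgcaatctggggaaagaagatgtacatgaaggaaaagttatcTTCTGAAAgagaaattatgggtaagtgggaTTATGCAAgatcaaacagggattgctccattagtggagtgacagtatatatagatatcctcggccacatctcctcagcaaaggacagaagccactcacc
C1ra: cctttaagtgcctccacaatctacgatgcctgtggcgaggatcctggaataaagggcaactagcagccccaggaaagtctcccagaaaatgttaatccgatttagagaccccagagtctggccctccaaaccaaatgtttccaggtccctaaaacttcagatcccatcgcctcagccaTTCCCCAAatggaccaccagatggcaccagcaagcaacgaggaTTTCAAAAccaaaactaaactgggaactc
C1s1: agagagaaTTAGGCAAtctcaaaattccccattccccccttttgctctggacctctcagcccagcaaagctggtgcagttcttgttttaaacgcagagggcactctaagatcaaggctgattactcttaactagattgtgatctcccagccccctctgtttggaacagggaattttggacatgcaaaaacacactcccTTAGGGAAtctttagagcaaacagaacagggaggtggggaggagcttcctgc
Saa3 held 4 matches, whose first bases lay at -216, -191, -129 and -99 from the start. C1ra held matches at -72 and -29, and C1s1 at -242 and -52. At least 1 match was present in 36.8% of 32851 mouse promoter windows of the same length, and 4 or more in 0.591%. The motif TTCNNNGAA, of the type bound by STAT proteins, was in none of the 3 windows and in 7.02% of all windows, and the NF-kB consensus was in none of the 3 and in 7.25% of all. A match or its lack describes these letters only.

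The arrays fell into 2 sets, told apart only by their control probe sets, that cut across the groups. On 8 arrays, all 5 WT_Aged and 3 of 5 KO_Adult (replicates 3, 4 and 5), the dap poly-A control, an RNA added during labelling, read 1184 to 3103, and on the other 11 it read 1 to 17.4. The 18S control probe set split the arrays in the same way, at 5835 to 19660 against 29.1 to 181. WT_Aged thus shares no set with WT_Adult or with KO_Aged. The model with this split as a batch term rests on KO_Adult alone, which lay in both. Its KO_Adult over WT_Adult difference is by construction that of the 2 KO_Adult arrays without poly-A control signal over the 5 WT_Adult arrays. The 2 ways of reading that comparison are thus not independent. Desmin itself read 72.7 to 636 in KO_Aged and 311 to 879 in KO_Adult, against 10749 to 12736 in WT_Aged and 13700 to 22313 in WT_Adult. The Gapdh 3′ to 5′ ratio, a measure of RNA integrity, was 5.01 on KO_Aged replicate 3 and 8.61 on KO_Aged replicate 2, and 0.766 to 0.968 elsewhere. None of 7 fast fibre genes was called in any comparison, beside the shares of all genes given below, with summed intensities of 150435 to 286861 over all arrays. Their group means were 14.46 to 14.97 on the log2 scale after quantile normalization, which tends to hold the brightest genes at like values on every array. The lack of calls therefore cannot show that fibre content was alike.

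Saa3 and C1s1 were higher in adult KO than in adult WT muscle, C1ra, C1s1 and Lbp were higher in aged KO than in aged WT muscle, and Saa3 and Hp were higher in aged WT than in adult WT muscle. Both comparisons with aged WT muscle set arrays with poly-A control signal against arrays without it. KO_Adult over WT_Adult and KO_Aged over KO_Adult are confounded with this split in part, through the 3 KO_Adult arrays with the signal. A gene was called at an adjusted p under 0.05 (limma, Benjamini-Hochberg over the 7436 genes). Of the 6 tested genes, 2 were called higher in KO_Adult over WT_Adult, where 7.21% of all genes were called higher and 9.39% lower. For KO_Aged over WT_Aged, 3 were called higher, beside 17.1% higher and 12.3% lower over all genes. For WT_Aged over WT_Adult, 2 were called higher, beside 17.9% higher and 21.0% lower. For KO_Aged over KO_Adult none was called by limma (3 of the 6, Lbp, Hp and C1ra, had an unadjusted p under 0.05), beside 3.71% higher and 3.60% lower. None passed the genotype by age interaction, the difference between the 2 genotype effects, where 14.5% of all genes were called higher and 10.7% lower; only Lbp had an unadjusted p under 0.05 there. None of the 6 was called lower anywhere in this model. The median log2 difference over the 6 genes was 0.43 in KO_Adult over WT_Adult, 0.98 in KO_Aged over WT_Aged, 0.12 in WT_Aged over WT_Adult and 1.07 in KO_Aged over KO_Adult, beside medians over all genes of 0.04, 0.08, -0.03 and 0.03 in the same order. With the batch term the medians over the 6 genes were 1.03, 0.52, 0.90 and 0.36 in that order, so which comparison had the larger median depended on the model. Each group enters 2 of these 4 comparisons, so they share arrays and are not independent.

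With the batch term, 1 of the 6 genes was called in KO_Adult over WT_Adult, C1s1, beside 3.56% of all genes higher and 3.11% lower. None was called in KO_Aged over WT_Aged (2.95% higher and 2.50% lower over all genes), WT_Aged over WT_Adult (0.0672% and 0.0269%), KO_Aged over KO_Adult (4.84% and 5.15%) or the interaction (0.0134% in each direction). For WT_Aged over WT_Adult, age and batch cannot be told apart except through that term. The same holds for genotype and batch in KO_Aged over WT_Aged. There all 5 WT_Aged arrays had poly-A control signal and all 4 KO_Aged arrays lacked it. In the other 2 pairwise comparisons the split was partial, with 3 KO_Adult arrays that had the signal and 2 that lacked it.

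**Figure D1:**
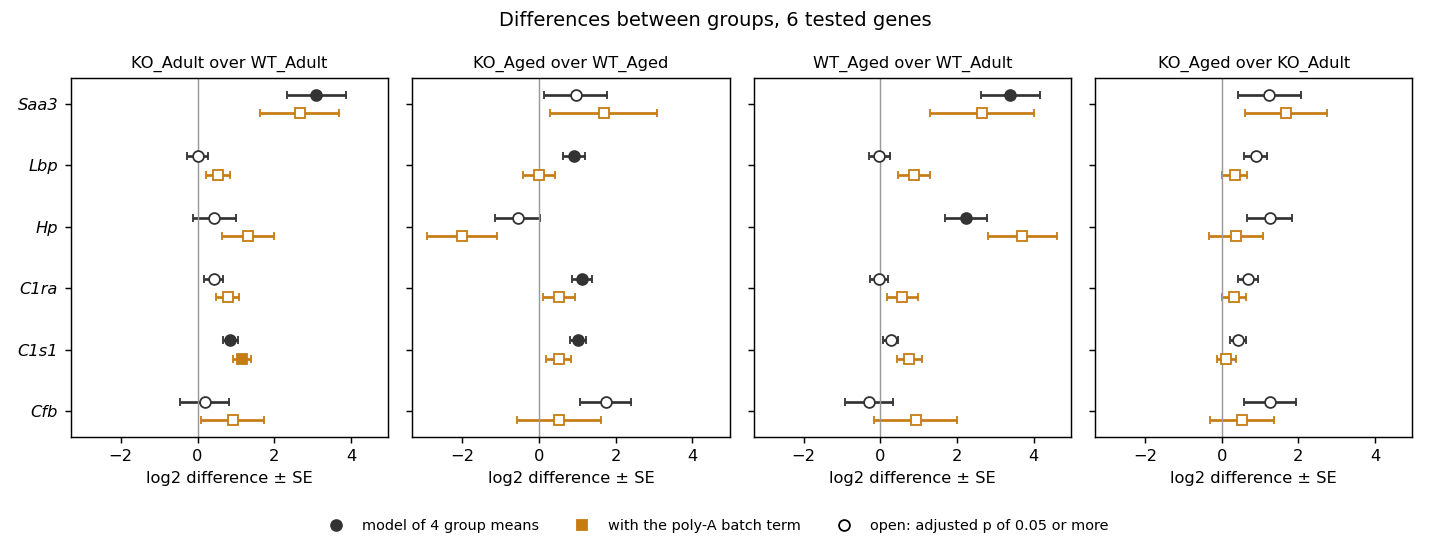
Log2 differences with their SE (horizontal axis) of the 6 tested genes (vertical axis) in 4 pairwise comparisons, from the model of 4 group means (circles) and with the poly-A batch term (squares), filled where the adjusted p was under 0.05. Saa3 stands at 3.10 and 3.39 against adult WT in the panels of KO_Adult and WT_Aged, and C1s1 in the first panel is the gene filled in both models.

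Saa3 encodes serum amyloid A3, a secreted apolipoprotein of the acute phase, and lies at chr7:46711998-46719615. Its MAS5 intensity was 2442, 204, 1838 and 2934 on the 4 KO_Aged arrays. It was 177, 826, 2223, 469 and 305 on the 5 KO_Adult arrays, in replicate order. It was 1194, 566, 325, 2049.7 and 324 on the WT_Aged arrays, against 13.5, 115, 108, 56.1 and 133 on the WT_Adult arrays. Every array of the other 3 groups lay above the highest adult WT array, and those 3 groups overlapped. Within each of them the values spread widely, and 1 KO_Aged array, the one with the Gapdh ratio of 8.61, read about as low as the lowest KO_Adult array.

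The log2 difference of Saa3 was 3.10 (SE 0.77, adjusted p = 0.0106, limma) for KO_Adult over WT_Adult. It was 3.39 (SE 0.77, adjusted p = 0.00296) for WT_Aged over WT_Adult. Saa3 averaged 6.05 on the normalized log2 scale in WT_Adult, under the lowest mean of a tested gene over all arrays, 6.32, so it passed the filter only through the other 3 groups, and both differences are set against dim values. At pseudocounts of 1 and 16 they were 3.21 and 2.85 for KO_Adult and 3.503 and 3.12 for WT_Aged, still called. KO_Aged over WT_Aged gave 0.96 (SE 0.82, adjusted p = 0.394) and KO_Aged over KO_Adult 1.25 (SE 0.82, adjusted p = 0.394), neither past the threshold. Without KO_Aged replicate 2 these were 1.79 and 2.08, still not called. The interaction was -2.14 (SE 1.12, adjusted p = 0.169), so a difference between the genotype effects at the 2 ages was not shown. With the batch term the KO_Adult over WT_Adult difference was 2.66 (adjusted p = 0.126) and the WT_Aged over WT_Adult difference 2.65 (adjusted p = 0.390).

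Saa3 was also read inside each set of arrays, where the comparisons of KO_Aged with WT_Adult and of KO_Adult with WT_Aged were chosen after the data had been seen. Among arrays without poly-A control signal, the 2 KO_Adult arrays, at 177 and 826, lay above all 5 WT_Adult arrays (log2 difference 2.66, adjusted p = 0.217, where 1.44% of all genes were called in either direction). In the same set the 4 KO_Aged arrays lay above all 5 WT_Adult arrays, with a log2 difference of 4.34 (SE 0.82, adjusted p = 0.00475), where 21.3% of all genes were called; age and genotype both differ there. That Saa3 call held without each array in turn, at 3.84 to 5.18, and without the 2 arrays of high Gapdh ratio, at 5.38 (adjusted p = 0.00683). Among arrays with the signal, 3 KO_Adult arrays and the 5 WT_Aged arrays overlapped, with a log2 difference of 0.01 (SE 0.74, adjusted p = 0.996), where 16.4% of all genes were called.

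**Figure D2:**
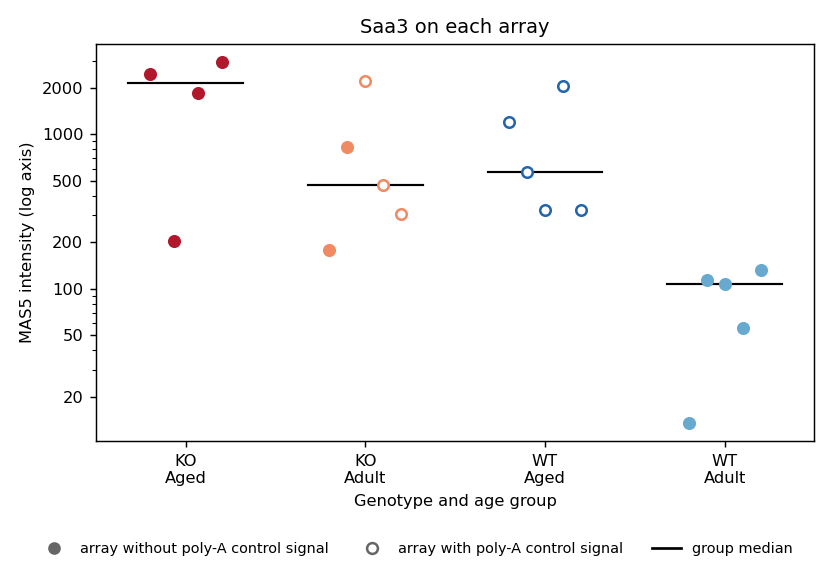
MAS5 intensity of Saa3 (vertical log axis) on each array in the 4 groups (horizontal axis). Filled points are arrays without poly-A control signal, open points arrays with it, and bars are group medians; the 5 WT_Adult arrays, at 13.5 to 133, lie below every other array.

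Each array holds RNA of a whole muscle, so more cells of a type and more RNA per cell cannot be told apart in these values. Of 8 measured neutrophil markers 2, S100a8 and S100a9, passed the filter. The summed intensity of the 8 was 6122 to 11669 in KO_Aged and 452 to 4015 in KO_Adult, against 2332 to 11788 in WT_Aged and 452 to 1605 in WT_Adult, carried by S100a8 and S100a9. Both S100a8 and S100a9 rose in WT_Aged over WT_Adult, by 2.84 and 3.19 on the log2 scale, and in KO_Aged over KO_Adult, by 2.56 and 2.63. Only S100a8 in KO_Aged over KO_Adult stayed called with the batch term (2.69, adjusted p = 0.0371). In KO_Adult over WT_Adult, where Saa3 was called, they stood at 1.16 and 1.34 (adjusted p = 0.154 and 0.163). The granule genes Mpo and Elane read 83.0 at most on any array, and Camp, a granule peptide, averaged 48.1 in KO_Aged and 11.5 in KO_Adult, against 4.53 in WT_Aged and 40.9 in WT_Adult, an order unlike that of S100a8. In the same order of groups Cxcr2 averaged 50.8, 22.3, 44.9 and 11.8, higher in aged than in adult muscle at each genotype. Ngp averaged 169, 47.5, 71.5 and 50.6, with a KO_Aged median of 79.4 and highest array of 452. Ltf averaged 35.2, 6.15, 17.3 and 22.2. These dim genes were not tested. In KO_Aged over KO_Adult S100a8 and S100a9 were called and Saa3, at 1.25 (SE 0.82), was not. Whether Saa3 differed from these genes was not tested. Macrophage and monocyte markers, 7 of 8 tested, summed to 6511 to 12560 in KO_Aged and 4017 to 6944 in KO_Adult, against 3353 to 12713 in WT_Aged and 3109 to 5959 in WT_Adult. Of the 7, 3 rose in WT_Aged over WT_Adult, 2 in KO_Aged over KO_Adult and 1, Ctss, in KO_Adult over WT_Adult. Over all genes 17.9%, 3.71% and 7.21% rose in these comparisons. With the batch term the numbers were 0, 1 and 0, beside 0.0672%, 4.84% and 3.56% of all genes. The part of these cells in the Saa3 values was not tested. Hepatocyte markers were dim: none of 6 passed the filter, no single value exceeded 71.5, and their sum was 40.1 to 200.4 over all arrays.

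The 5 genes whose normalized log2 values followed Saa3 most closely over the 19 arrays were Ptx3 (Pearson r = 0.905), Abi3bp (0.873), Il1rap (0.864), Cxcl5 (0.856) and Evi2a (0.848). Ptx3 encodes the long pentraxin 3, a pattern recognition protein that binds C1q, Il1rap the accessory chain of the interleukin-1 receptor, and Cxcl5 a chemokine that attracts neutrophils. The points share group, poly-A control set and array. With the group means taken out the same correlations were 0.740, 0.672, 0.774, 0.858 and 0.468 in the order named. Ptx3 averaged 1740 ± 1154 in KO_Aged (SD, 4 arrays) and 1206 ± 754 in KO_Adult, against 1165 ± 512 in WT_Aged and 251 ± 29.4 in WT_Adult (5 arrays each). Its KO_Adult over WT_Adult difference was 2.12 on the log2 scale (adjusted p = 0.00606; with the batch term 1.48, adjusted p = 0.145).

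**Figure D3:**
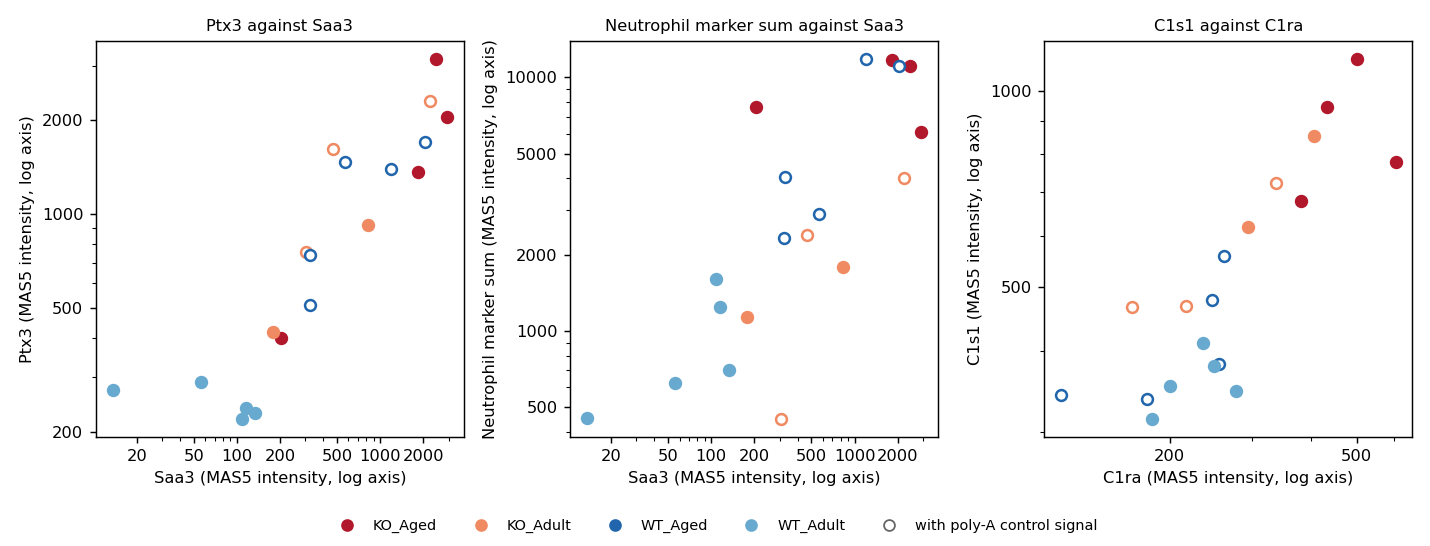
Each point is 1 of 19 arrays, on log axes of MAS5 intensity: Ptx3 against Saa3 (left), the summed intensity of 8 neutrophil markers against Saa3 (middle) and C1s1 against C1ra (right). Adult WT arrays lie at the low end of Saa3 in the first 2 panels, and open points are arrays with poly-A control signal.

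Hp encodes haptoglobin, the plasma protein that captures free haemoglobin, and lies at chr8:109575128-109579172. Its intensity was 484, 172, 536 and 583 on the KO_Aged arrays and 162, 503, 159, 53.1 and 126 on the KO_Adult arrays. It was 891, 386, 339.6, 1149 and 510.4 on the WT_Aged arrays, against 99.7, 250.04, 279.8, 40.5 and 130.03 on the WT_Adult arrays. Every aged WT array was above every adult WT array, while the KO groups overlapped each other and their WT groups. The WT_Aged over WT_Adult difference was 2.24 on the log2 scale (SE 0.55, adjusted p = 0.00501, limma), a 4.71-fold change and the 52nd highest of all genes. With the batch term it was 3.70 (SE 0.90, adjusted p = 0.127). Hp stood at 0.44 in KO_Adult over WT_Adult (adjusted p = 0.615), -0.55 in KO_Aged over WT_Aged (adjusted p = 0.506; -2.01 with the batch term, adjusted p = 0.185) and 1.25 in KO_Aged over KO_Adult (adjusted p = 0.207). Among arrays with poly-A control signal, the 3 KO_Adult arrays, at 159, 53.1 and 126, all lay below the 5 WT_Aged arrays, with a log2 difference of -2.38 (SE 0.45, adjusted p = 0.0112) that stayed called without each array in turn; age and genotype both differ in it.

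Lbp encodes the lipopolysaccharide-binding protein, which hands bacterial lipopolysaccharide to CD14 and TLR4, and lies at chr2:158306493-158332852. Its intensity was 838, 533, 1085 and 1118 on the KO_Aged arrays and 596, 652, 331, 342 and 352 on the KO_Adult arrays. It was 508, 283, 465, 648 and 382 on the WT_Aged arrays, against 434, 561, 641, 309 and 475 on the WT_Adult arrays. Of the KO_Aged arrays 3 lay above all other arrays, and the fourth, at 533, fell among them. KO_Aged over WT_Aged gave a log2 difference of 0.91 (SE 0.29, adjusted p = 0.0252, limma). That call was lost without WT_Aged replicate 2 (0.76, adjusted p = 0.0698), WT_Aged replicate 5 (0.87, 0.0522), KO_Aged replicate 3 (0.80, 0.0824) or KO_Aged replicate 4 (0.79, 0.0760), and without both arrays of high Gapdh ratio (1.04, 0.0600). With the batch term the difference was 0.01 (adjusted p = 0.995). The 2 KO_Adult arrays without poly-A control signal, at 596 and 652, lay above the 3 with it, at 331 to 352, so the batch term for Lbp was -0.91 (adjusted p = 0.0572). KO_Adult over WT_Adult gave 0.00 (adjusted p = 0.999), WT_Aged over WT_Adult -0.02 (adjusted p = 0.952) and KO_Aged over KO_Adult 0.89 (adjusted p = 0.0676). Against adult WT in the set without the signal, KO_Aged gave 0.89 (SE 0.27, adjusted p = 0.0363), and of the 9 fits that left out an array of these groups 3 kept the call.

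Orm1, which encodes alpha-1-acid glycoprotein and lies at chr4:63344556-63348163, ranked 9967 of 12393 genes by mean and was not tested. Its intensity was 2.63 to 57.8 in KO_Aged and 5.02 to 26.1 in KO_Adult, against 4.67 to 30.4 in WT_Aged and 12.6 to 33.3 in WT_Adult. The 4 ranges overlapped.

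C1ra and C1s1, which encode the C1r and C1s proteases, are neighbours, at chr6:124512621-124523440 on the plus strand and chr6:124530344-124542392 on the minus strand, with 6903 bases between them. The C1s1 probe set is of a type that can match several transcripts, and both genes have close mouse relatives whose RNA could contribute to the signal.

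C1s1 read 678, 943, 779 and 1118 on the KO_Aged arrays and 618, 852, 467, 469 and 723 on the KO_Adult arrays. It read 478, 342, 558, 382 and 338 on the WT_Aged arrays, against 315, 379, 347, 353 and 411 on the WT_Adult arrays. At each age all KO arrays were above all WT arrays. KO_Adult over WT_Adult gave a log2 difference of 0.86 (SE 0.20, adjusted p = 0.00648, limma), a 1.81-fold change, and KO_Aged over WT_Aged gave 1.01 (SE 0.21, adjusted p = 0.00157), a 2.01-fold change. The genotype effects at the 2 ages differed by 0.15 (SE 0.28, adjusted p = 0.726). Both calls held without each array in turn, at 0.72 to 0.96 in adult and 0.89 to 1.14 in aged muscle, and without the arrays of high Gapdh ratio. With the batch term the adult difference was 1.15 (SE 0.24, adjusted p = 0.00969) and the aged difference 0.52 (SE 0.32, adjusted p = 0.328). Aged over adult, C1s1 stood at 0.27 in WT (adjusted p = 0.281) and 0.42 in KO (adjusted p = 0.233).

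Among arrays without poly-A control signal, the 2 KO_Adult arrays lay above the 5 WT_Adult arrays. The log2 difference was 1.15 (SE 0.23, adjusted p = 0.0364), by construction the same difference as with the batch term. With 1 array left out this adjusted p ran from 0.0268 to 0.571, the highest without KO_Adult replicate 2, and each of the 7 fits that left out an array of the 2 groups compared lost the call (0.0524 to 0.571), those without a KO_Adult array testing 1 array assumed to vary like the rest; without both arrays of high Gapdh ratio it was 0.0539. KO_Aged over WT_Adult in the same set gave 1.28 (SE 0.19, adjusted p = 0.00158), which held without each array and without the arrays of high Gapdh ratio (1.26, adjusted p = 0.0178).

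C1ra read 381, 433, 606 and 501 on the KO_Aged arrays and 293, 405, 166, 216 and 338 on the KO_Adult arrays. It read 246, 118, 260.4, 254 and 179 on the WT_Aged arrays, against 184, 249, 276, 200.3 and 236 on the WT_Adult arrays. The KO_Aged arrays lay above all WT arrays of both ages, and the KO_Adult arrays overlapped the adult WT arrays. KO_Aged over WT_Aged gave 1.13 (SE 0.26, adjusted p = 0.00351, limma), a 2.18-fold change. That call held without each array in turn, at 0.95 to 1.26, but not without both arrays of high Gapdh ratio (0.93, adjusted p = 0.0671) or with the batch term (0.52, adjusted p = 0.442). The log2 difference was 0.42 for KO_Adult over WT_Adult (adjusted p = 0.247), -0.03 for WT_Aged over WT_Adult (adjusted p = 0.928) and 0.68 for KO_Aged over KO_Adult (adjusted p = 0.119). Inside the set without poly-A control signal, KO_Aged over WT_Adult gave 1.09 (SE 0.21, adjusted p = 0.00547). Leaving out both arrays of high Gapdh ratio gave 0.90 (adjusted p = 0.0537).

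Over the 19 arrays C1ra and C1s1 correlated at r = 0.858, and at 0.719 with group means taken out. C1ra correlated at 0.818 with Lbp (0.734 within groups) and at 0.794 with Cfb (0.728). With Saa3 it correlated at 0.393, and at 0.01 within groups. Saa3 and Hp correlated at 0.661 (0.546 within groups). These correlations describe arrays that share groups and poly-A control sets.

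Fibro-adipogenic markers, of the connective tissue cells that also make C1r and C1s, summed over 7 genes to 12407 to 18481 in KO_Aged and 9923 to 17980 in KO_Adult, against 8204 to 14172 in WT_Aged and 11125 to 13109 in WT_Adult. Dcn made up most of the sum, averaging 9635, 9910, 7697 and 7042 in that order of groups. Mean intensities of Dpt and Pdgfra were also higher in KO than in WT at each age. Those of Cd34 and Pi16 were lower, and those of Lum and Dpp4 differed in direction between the ages. Of 6 tested, 1 was called lower in KO_Adult over WT_Adult, 1 higher in KO_Aged over WT_Aged and 1 lower in WT_Aged over WT_Adult. The shares of all genes called in the same directions were 9.39%, 17.1% and 21.0%. None of these calls stood with the batch term, while Dpt, a matrix protein gene, was then called higher in KO_Adult over WT_Adult (1.13, adjusted p = 0.0364). Their part in the C1ra and C1s1 values was not tested.

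Cfb encodes complement factor B and lies at chr17:34856374-34862514. Its intensity was 178, 165, 326 and 262 on the KO_Aged arrays and 64.7, 286, 108, 12.5 and 109 on the KO_Adult arrays. It was 101, 5.16, 113, 146 and 51.2 on the WT_Aged arrays, against 75.1, 98.9, 103, 69.9 and 85.6 on the WT_Adult arrays. All KO_Aged arrays lay above all WT arrays, yet KO_Aged over WT_Aged, at 1.74 (SE 0.67, adjusted p = 0.0575, limma), missed the threshold. It passed at a pseudocount of 16 (1.496, adjusted p = 0.0441), with array weights (2.00, 0.0426) and without WT_Aged replicate 4, KO_Adult replicate 2 or KO_Adult replicate 4 (adjusted p = 0.0252 to 0.0405), while without WT_Aged replicate 2, the array at 5.16, it was 1.12 (adjusted p = 0.152) and with the batch term 0.52 (adjusted p = 0.801). KO_Adult over WT_Adult gave 0.18 (adjusted p = 0.870), WT_Aged over WT_Adult -0.29 (adjusted p = 0.736) and KO_Aged over KO_Adult 1.26 (adjusted p = 0.268). In WT_Aged Cfb averaged 6.07 on the normalized log2 scale, under the 6.32 of the dimmest tested gene. The KO_Aged over WT_Aged difference is thus set against dim values. Inside the set without poly-A control signal, KO_Aged over WT_Adult gave 1.45 (SE 0.37, adjusted p = 0.0188), with the call lost without KO_Aged replicate 3 (1.26, adjusted p = 0.0602) and without both arrays of high Gapdh ratio (1.25, adjusted p = 0.113).

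**Figure D4:**
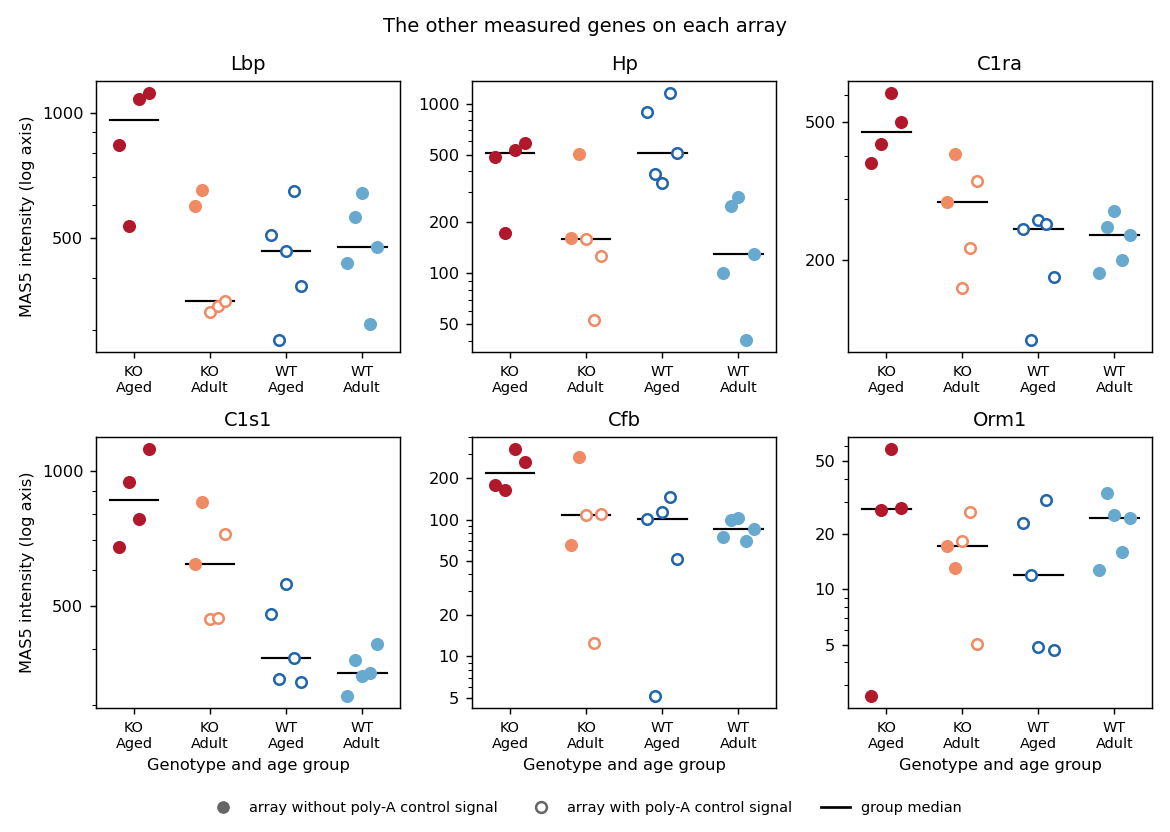
MAS5 intensity (vertical log axes) of Lbp, Hp, C1ra, C1s1, Cfb and Orm1 on each array in the 4 groups, with bars at group medians and open points for arrays with poly-A control signal. C1s1 is higher on every KO array than on every WT array of the same age, and Hp is higher on every WT_Aged array than on every WT_Adult array.

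The other complement genes were read from lists. Each list count that follows is to be read beside the share of all genes called, given above for each comparison and model. Of 13 recognition and early pathway genes, 11 were measured and 6 tested. None was called in KO_Adult over WT_Adult, and in KO_Aged over WT_Aged Cfp rose alone, by 1.84 on the log2 scale (adjusted p = 0.00458; with the batch term 0.76, adjusted p = 0.514). Cfp encodes properdin, which stabilises the convertase that factor B forms, and averaged 268 ± 60.6 in KO_Aged (SD, 4 arrays) against 73.0 ± 31.8 in WT_Aged (5 arrays). Its WT_Aged mean was 6.19 on the normalized log2 scale, under the 6.32 of the dimmest tested gene. That difference is thus set against dim values. Cfp also rose in KO_Aged over KO_Adult, by 1.68 (with the batch term 1.04, adjusted p = 0.196), while C1qa, a chain of the C1q recognition protein, fell by 1.97 (adjusted p = 0.0339; -2.65 with the batch term, adjusted p = 0.0251). C1qa spread from 18.2 to 283 over the 4 KO_Aged arrays, 2 of which had a high Gapdh ratio. Its difference without those arrays was not read. The C1qb and C1qc chains stood at 0.44 and 0.48 in that comparison, and at -0.60 and -0.25 with the batch term, and were called in neither. Masp1, a protease of the lectin pathway, fell by 1.002 in WT_Aged over WT_Adult (adjusted p = 0.0391; 0.16 with the batch term).

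Of the 7 terminal pathway genes 6 were measured and none passed the filter, with sums of 67.5 to 126 in KO_Aged and 77.2 to 114 in KO_Adult, against 57.2 to 148 in WT_Aged and 56.4 to 171 in WT_Adult. Of 7 complement receptors only Itgb2, the beta chain of complement receptor 3, was tested, and it rose by 1.65 in KO_Aged over KO_Adult (adjusted p = 0.0496; with the batch term 1.60, adjusted p = 0.114).

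Complement regulators, 6 tested of 9 measured, were called in both directions. In KO_Adult over WT_Adult 2 rose, Cd59a and Cd55, and 2 fell, Clu and Vtn. Cd55 was 0.52 with the batch term (adjusted p = 0.449) and Vtn -1.23 (adjusted p = 0.0831), while Cr1l, not called without it, was 0.57 (adjusted p = 0.0400). In KO_Aged over WT_Aged 2 rose, Cd59a and Serping1, and Clu fell. Cd59a encodes the membrane protein that blocks the membrane attack complex, and averaged 1260.3 ± 153 in KO_Aged against 387 ± 84.2 in WT_Aged, and 1186 ± 409 in KO_Adult against 420.0 ± 15.4 in WT_Adult. Its log2 differences were 1.66 (adjusted p = 2.61e-05) in aged and 1.49 (adjusted p = 8.05e-05) in adult muscle, and with the batch term 1.56 (adjusted p = 0.0195) and 1.55 (adjusted p = 0.00220). Clu encodes clusterin, a fluid-phase inhibitor of the same complex, and averaged 1605 ± 326 in KO_Aged against 5808 ± 1738 in WT_Aged, and 826 ± 162 in KO_Adult against 3456 ± 1478 in WT_Adult. Its log2 differences were -1.83 (adjusted p = 0.000390) in aged and -1.95 (adjusted p = 0.000336) in adult muscle, and both calls stood with the batch term (-2.12, adjusted p = 0.0320, and -1.77, adjusted p = 0.0158). Serping1, the C1 inhibitor that inactivates C1r and C1s, rose by 1.02 in KO_Aged over WT_Aged (adjusted p = 0.0160), against -0.07 with the batch term (adjusted p = 0.933). In WT_Aged over WT_Adult Cd55 and Clu rose, by 1.003 and 0.78, and Vtn fell by 1.41, none of them called with the batch term.

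Acute phase proteins outside the 9 genes, 10 tested of 26 measured, were mostly higher in aged than in adult WT muscle: 9 rose and 1 fell in WT_Aged over WT_Adult, with a median log2 difference of 1.17 beside -0.03 over all genes. None of the 10 was called there with the batch term, and the median was 0.74. The smallest p-values in that comparison belonged to Lcn2, an iron-trapping lipocalin (2.63), Saa1, a hepatic serum amyloid A close in sequence to Saa2 (2.06), Ptx3 (2.15) and Serpina3n, a protease inhibitor (1.48). In KO_Adult over WT_Adult 2 of the 10 rose, Ptx3 and Fetub, a fetuin of the cystatin family. Serpina3n stood at 1.04 there (adjusted p = 0.0508) and was called with the batch term (1.67, adjusted p = 0.0261), while Ptx3 then was not. Fetub averaged 429.7 ± 204 in KO_Adult against 36.2 ± 12.1 in WT_Adult, a log2 difference of 3.57 (adjusted p = 7.3e-06; with the batch term 4.30, adjusted p = 9.04e-06). In KO_Aged over WT_Aged Fetub rose by 4.86 (adjusted p = 4.15e-07; with the batch term 3.63, adjusted p = 0.00309) and Serpina3n by 1.96, while Lcn2 fell by 1.56; the last 2 lost their calls with the batch term (Serpina3n 0.91, adjusted p = 0.325, and Lcn2 -1.79, adjusted p = 0.148). Fetub averaged 4.04 in WT_Aged and 5.14 in WT_Adult on the normalized log2 scale, under the 6.32 of the dimmest tested gene, so it passed the filter only through the KO groups, and its differences are set against dim values. In KO_Aged over KO_Adult Serpina3n rose by 2.41 (adjusted p = 0.00199; with the batch term 1.77, adjusted p = 0.0221) and Saa1 by 1.16 (adjusted p = 0.0469; with the batch term 1.32, adjusted p = 0.0673). The medians of the list were 0.54, -0.20 and 0.48 in KO_Adult over WT_Adult, KO_Aged over WT_Aged and KO_Aged over KO_Adult, and 0.32, 0.29 and 0.88 with the batch term.

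**Figure D5:**
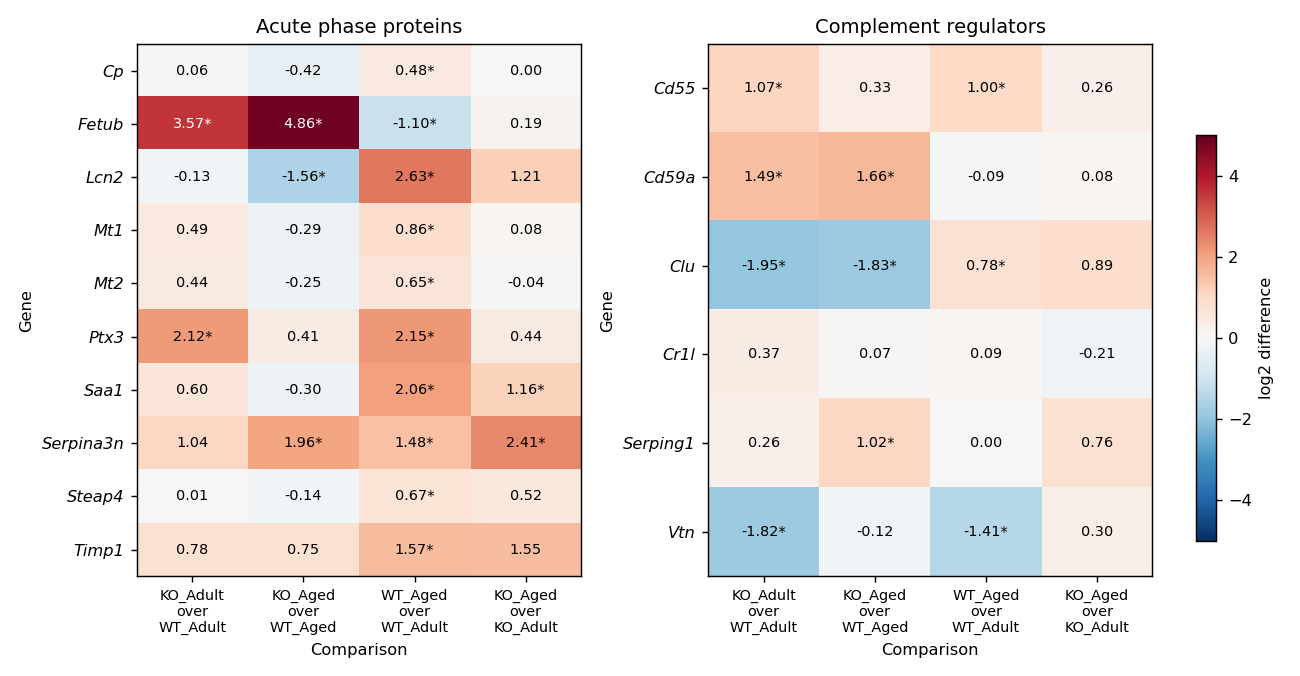
Log2 differences (colour and numbers, without the batch term) of the 10 tested acute phase proteins (left) and the 6 tested complement regulators (right), genes in rows and 4 comparisons in columns, with an asterisk at an adjusted p under 0.05. All 10 acute phase proteins carry an asterisk in WT_Aged over WT_Adult, where only Fetub is negative, and Cd59a and Clu carry one at both ages between genotypes.

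Genes of the cytokines, receptors and transcription factors that drive the acute phase response, 18 tested of 23 measured, gave 11 higher and 1 lower in WT_Aged over WT_Adult, and none with the batch term. Those with the smallest p were Osmr, the oncostatin M receptor (1.34), Socs3, the feedback inhibitor of interleukin-6 signalling (2.74), Il1rap (1.14) and the NF-kB cofactor Nfkbiz (2.73). In KO_Adult over WT_Adult 2 rose, Socs3 by 1.89 and Osmr by 0.64, neither called with the batch term, and Il6 itself stood at 2.62 (adjusted p = 0.0652). Il6 averaged 5.61 in WT_Adult on the normalized log2 scale, and Il1rap 5.74 in WT_Adult and 6.24 in KO_Adult. These means lay under the 6.32 of the dimmest tested gene. Both genes passed the filter only through their other groups, so their differences against these groups are set against dim values. In KO_Aged over WT_Aged the shared receptor chain Il6st rose by 0.93 (adjusted p = 5.8e-05; with the batch term 0.74, adjusted p = 0.0421), and 4 fell, with Cebpb by 1.47, Cebpd by 1.44 and Osmr by 0.70 among them. None of the 4 was called with the batch term, where Cebpb was -0.22, Cebpd -1.34 and Osmr 0.08 (adjusted p = 0.736, 0.137 and 0.865). In KO_Aged over KO_Adult Il6st and Il1r1 rose, by 0.71 and 1.30, and both stood with the batch term. For the interaction 1 was called higher and 5 lower, beside 14.5% and 10.7% of all genes. Il6st (1.12), Osmr (-1.34), Socs3 (-2.71) and Cebpb (-1.59) had the smallest p. None was called with the batch term, where 0.0134% of all genes were in each direction.

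Pattern receptors and receptors for the products of the 9 genes, 8 tested of 10 measured, gave 4 higher and 2 lower in WT_Aged over WT_Adult. The smallest p there belonged to Scarb1 (-1.45), Tlr4 (1.86), Fpr2 (2.17), a formyl peptide receptor that also binds serum amyloid A, and Cd14 (2.25), none called with the batch term. In KO_Adult over WT_Adult only Scarb1 was called, at -1.07 (with the batch term -0.55, adjusted p = 0.173), and Tlr4 stood at 1.34 (adjusted p = 0.0517). In KO_Aged over WT_Aged only Lrp1 was called, at 0.94 (with the batch term -0.10, adjusted p = 0.904). In KO_Aged over KO_Adult none was called, and with the batch term Fpr2 was (2.51, adjusted p = 0.0359; without it 1.84, adjusted p = 0.0554). Fpr2 averaged 5.43 in WT_Adult and 6.16 in KO_Adult on the normalized log2 scale, under the 6.32 of the dimmest tested gene. It passed the filter only through the aged groups, so its differences between ages are set against dim values.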

How the data were processed

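The deposited values are 1 linear intensity per probe set and array, made by the authors with MAS5 per the submitters' processing notes; no version of it is recorded in the labels. Per the labels' protocols, biotinylated cRNA was made from total RNA. Of 22690 probe sets, 64 were controls, 20380 had 1 gene symbol, 691 several and 1619 none. From these intensities log2(intensity + 4.76) was computed, the pseudocount being the 10th percentile of all values, and because array medians spanned 0.63 (limit 0.5) the arrays were quantile normalized. Per-array intensities in the text are as deposited, while differences and folds are on the normalized log2 scale, which understates changes of dim genes. Group means were fitted over the 19 arrays together (limma 3.58.1, R 4.3.3, lmFit and eBayes), with Benjamini-Hochberg adjustment over 7436 genes. A dap intensity over 100 defined the batch term, and a Gapdh ratio over 3 a high ratio. The model of group means was run on simulated normal values with differences added in KO_Adult, and only KO_Adult over WT_Adult was scored. The simulation held no batch and no normalization, so it could not test the batch term or the other comparisons. Sequences are from RefSeq, and plots were made with Python 3.11.15 and matplotlib 3.10.9.

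The alternatives were other normalizations, pseudocounts, filters, probe set rules, variance models, array weights, thresholds, the batch term and leaving out arrays. Comparing KO_Aged with WT_Adult and KO_Adult with WT_Aged inside 1 poly-A control set was added after seeing the data. The genes named beyond the 9 were, per list and comparison, up to 4 with the smallest p, the 5 most like Saa3, Des, and a few markers and counts of 5 or fewer named after their values were seen. The 9 genes and the lists were chosen with earlier results of these data known. The number of arrays limits the precision.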

Additional observations from a re-analysis of the deposited data

How the results depend on the processing

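Of 1051 values of single genes under alternative settings, 1015 kept their direction where called and their side of the threshold, 17 gained a call and 19 lost it; no called value turned its sign, and 35 values called in neither setting did. Called genes in KO_Adult over WT_Adult numbered 1 in place of 2 with the batch term, with only arrays without poly-A control signal, with the batch term and without high Gapdh ratio arrays, and at a threshold of 0.01. In KO_Aged over WT_Aged they numbered 0 in place of 3 with the batch term, 1 without high Gapdh ratio arrays and 0 with both, and 2 to 4 without 1 array. In WT_Aged over WT_Adult they numbered 0 in place of 2 with the batch term, alone or without high Gapdh ratio arrays. In KO_Aged over KO_Adult they numbered 1 in place of 0 without normalization between arrays, 4 with array weights, and 0 to 1 without 1 array, with Lbp called without KO_Adult replicate 2 or KO_Aged replicate 2. For the interaction they numbered 3 in place of 0 with array weights, and 0 to 1 without 1 array, with Lbp called without WT_Adult replicate 4 or KO_Adult replicate 2. Saa3 in KO_Adult over WT_Adult was 2.66 with the batch term (adjusted p = 0.126), with only arrays without poly-A control signal (0.217) and with the batch term and without high Gapdh ratio arrays (0.0779); in WT_Aged over WT_Adult it was 2.65 with the batch term (0.390), and with it and without high Gapdh ratio arrays (0.289). The KO_Adult over WT_Adult value of 2.66 is 1 estimate in each of these settings. It comes from the 2 KO_Adult arrays without poly-A control signal and WT_Adult, and only the estimated spread differs. The Saa3 interaction was -2.94 with array weights (adjusted p = 0.0434). The cause of these changes was not tested. Without 1 array Saa3 ran from 2.60 to 3.48 in KO_Adult over WT_Adult and from 2.88 to 3.65 in WT_Aged over WT_Adult, called each time.

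No paired analysis was possible because the labels give no replicate numbers that groups share. Arrays whose title codes begin alike, taken as a random block, correlated at 0.286, and the counts of called genes did not change by that setting. Signal over background limits Orm1 and the terminal complement genes, which have no test.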

Other observations

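Some genes were looked at after their values had been seen. The gene that followed C1ra most closely over the 19 arrays was Serping1, which encodes the inhibitor of C1r and C1s, at a Pearson r of 0.932 (0.884 with group means taken out). Serping1 was also the closest to Lbp, at 0.902 (0.848 within groups). For C1s1 the closest was Ndufs4, a subunit of respiratory complex I, at 0.904, and at 0.619 within groups. For Hp the closest was Ifi27l2a, an interferon-induced gene, at 0.856 (0.748 within groups), and for Cfb it was C1ra, at 0.794. These points share groups, poly-A control sets and arrays.

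Endothelial markers, which no list of the report uses, summed over 5 genes to 1213 to 1939 in KO_Aged and 1057 to 1702 in KO_Adult, against 1446 to 2067 in WT_Aged and 3172 to 3888 in WT_Adult. Of the 5 genes, 4 were called lower in KO_Adult over WT_Adult and 3 lower in WT_Aged over WT_Adult, and with the batch term 2 and none. Over all genes 9.39% and 21.0% were called lower, and with the batch term 3.11% and 0.0269%. In KO_Aged over WT_Aged 1 was called higher and 1 lower, and with the batch term 1 lower. Adipocyte markers summed over 4 genes to 5242 to 8642 in KO_Aged and 4703 to 10465 in KO_Adult, against 11560 to 13552 in WT_Aged and 6223 to 12182 in WT_Adult. Fabp4 carried this sum, with means of 6373, 7326, 12374 and 8911 in that order of groups. Adipoq, the other tested gene, averaged 253, 198, 206 and 158, an order unlike that of Fabp4. Lep and Retn were dim and not tested. Of 2 tested adipocyte genes, 1 was called lower in KO_Aged over WT_Aged, and with the batch term none there and 1 lower in KO_Adult over WT_Adult. The shares of all genes called lower were 12.3%, 2.50% and 3.11% in that order. The part of either cell type in the values of the 9 genes was not tested.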
